A study of Mus musculus with 14 samples.

Results

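The 7 cyclin-dependent kinase (Cdk) inhibitor genes Cdkn1a, Cdkn1b, Cdkn1c, Cdkn2a, Cdkn2b, Cdkn2c and Cdkn2d were followed through 14 lists of open chromatin peaks from mouse neural stem cells. Every peak that overlapped one of these genes or lay within 50 kb of it was taken, and overlapping peaks of the 14 lists were merged into regions. This gave 78 regions out of 127850 in the genome. The assay was ATAC-seq, which marks accessible DNA by letting the Tn5 transposase cut it and attach adapters, and each library came from 50000 cells.

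The cells were an Empty Vector mNSC line and a ZFTA-RELA mNSC line, grown with EGF and basic FGF. ZFTA-RELA joins a zinc finger protein to RELA, a subunit of NF-kB, and is a known driver of ependymoma. The 7 groups had 2 libraries each. EV was the empty vector line, whose replicate 1 was labelled with DMSO as vehicle and whose replicate 2 was labelled with PBS. ZR was the fusion line with PBS vehicle. ZR_DMSO was the fusion line with DMSO in the title and PBS vehicle in the treatment label. ZR_GSK343 was the fusion line given GSK-343 at 10 µM for 96 h, which blocks EZH2, the Polycomb enzyme that methylates histone H3 at lysine 27. ZR_dmCitra was the fusion line titled dmCitra and labelled as treated with Citraconate at 10 mM. DMSO_50K was labelled Empty Vector mNSC with DMSO vehicle, and Citraconate_50K was labelled ZFTA-RELA mNSC with Citraconate at 10 mM. In this last pair the line and the treatment cannot be told apart. For citraconate the protocol names 24 h or 48 h without assigning them. Whether replicates came from separate cultures is not stated, and their spread may be technical only.

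Cdk inhibitors restrain the cell cycle. The Ink4 proteins (encoded by Cdkn2a, Cdkn2b, Cdkn2c and Cdkn2d) bind Cdk4 and Cdk6 and keep them from pairing with D-type cyclins, so that the retinoblastoma protein stays active. The Cip/Kip proteins (encoded by Cdkn1a, Cdkn1b and Cdkn1c) bind assembled cyclin and Cdk complexes, chiefly those of Cdk2. Cdkn2a also encodes Arf from a separate first exon, and Arf stabilises p53, which in turn activates Cdkn1a. Polycomb proteins, EZH2 among them, are known repressors of the Cdkn2a and Cdkn2b locus.

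The lists held 12554 to 60472 peaks, and the read depth behind them is unknown. ZR_DMSO stood apart, with 12390 and 20881 peaks on chromosomes 1 to 19, X and Y and median peak widths of 226 and 186 bp, and ZR_GSK343 replicate 1 had 19239 peaks. The rank a peak can take depends on the number of peaks in its list, and the part of this number in the results was not tested. Of 10 neural stem markers, 7 and 8 had a peak no farther than 1 kb from a gene end in EV, 4 in each ZR list, 1 and 3 in ZR_DMSO and 3 to 6 in the other lists. Sox2 and Sox1 had one in both EV lists and in no other list, and Pax6 had none in any list. Of 5 markers each, microglia, astrocyte and oligodendrocyte lists had 0 to 2 per library, neurons 1 to 3, and vascular and mesenchymal cells 0 to 3. The share of peaks on chromosome 4, which carries Cdkn2a, Cdkn2b and Cdkn2c, was 6.0% and 5.99% in EV, 3.58% and 3.62% in ZR and 1.88% to 3.62% in the treated and DMSO libraries of the same series. It was 5.67% and 5.71% in DMSO_50K and 6.03% and 6.08% in Citraconate_50K, although the last carried a fusion label.

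Promoter sequence was available from RefSeq (GRCm38.p6, the coordinates of mm10) for 9 start sites of 6 members. Of these, 6 are shown, 200 bases upstream of the start and 5′ to 3′ on the gene's strand. They are the start without any peak and some, not all, of those whose peaks differed between groups. Capitals mark matches on either strand to the GC box GGGCGG, the cyclic AMP response element TGACGTCA, the E2F site TTTCCCGC and the p53 half-site.
Cdkn1a, first start, chr17:29090779-29090978, plus strand: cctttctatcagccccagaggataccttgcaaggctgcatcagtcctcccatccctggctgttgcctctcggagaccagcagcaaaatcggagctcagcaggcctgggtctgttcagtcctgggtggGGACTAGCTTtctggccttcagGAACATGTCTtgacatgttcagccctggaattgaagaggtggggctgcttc
Cdkn1a, second start, chr17:29093569-29093768, plus strand: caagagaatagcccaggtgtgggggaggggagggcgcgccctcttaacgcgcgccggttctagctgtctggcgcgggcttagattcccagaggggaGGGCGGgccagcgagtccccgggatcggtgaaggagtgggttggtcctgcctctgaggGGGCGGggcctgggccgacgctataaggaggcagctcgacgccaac
Cdkn2a, Arf start, chr4:89294620-89294819, minus strand: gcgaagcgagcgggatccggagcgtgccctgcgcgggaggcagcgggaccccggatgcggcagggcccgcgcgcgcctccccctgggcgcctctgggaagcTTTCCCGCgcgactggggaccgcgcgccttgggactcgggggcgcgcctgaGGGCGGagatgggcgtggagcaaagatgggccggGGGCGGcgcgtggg
Cdkn2a, Ink4a start, chr4:89282193-89282392, minus strand: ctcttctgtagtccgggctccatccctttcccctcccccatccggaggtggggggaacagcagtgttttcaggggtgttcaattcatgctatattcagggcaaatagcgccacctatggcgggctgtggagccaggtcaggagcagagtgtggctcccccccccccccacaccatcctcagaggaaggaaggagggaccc
Cdkn2b, chr4:89311033-89311232, minus strand: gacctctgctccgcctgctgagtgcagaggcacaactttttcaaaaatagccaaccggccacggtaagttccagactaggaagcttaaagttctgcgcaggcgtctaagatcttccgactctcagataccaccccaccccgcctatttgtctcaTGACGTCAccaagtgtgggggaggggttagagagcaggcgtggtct
Cdkn2d, chr9:21291210-21291409, minus strand: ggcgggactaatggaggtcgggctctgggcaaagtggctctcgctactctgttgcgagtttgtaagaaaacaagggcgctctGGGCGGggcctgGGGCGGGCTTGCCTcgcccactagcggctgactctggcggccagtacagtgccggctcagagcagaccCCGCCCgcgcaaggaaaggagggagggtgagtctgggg

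The first Cdkn1a start had 2 p53 half-sites, a form found in 5.59% of the 32851 mouse promoter windows of this length, and 2 CpG dinucleotides. It was the only one of the 9 member starts whose window had no peak in any of the 14 lists. The second Cdkn1a start had 2 GC boxes, which 31.0% of windows hold, and 17 CpG. The Arf start had 30 CpG, 2 GC boxes and an E2F site, which 0.776% of windows hold, whereas the Ink4a start in the same gene had 4 CpG and none of these motifs. Cdkn2b had 9 CpG and a cyclic AMP response element, which 1.47% of windows hold. Cdkn2d had 14 CpG, 3 GC boxes and 1 p53 half-site that overlaps a GC box. Cdkn1b had 27 CpG, 1 GC box and 2 CCAAT boxes, a motif in 29.3% of windows. Cdkn2c, also not shown although its region differed between groups, had 28 CpG and 3 GC boxes at chr4:109666756. Its other start, at chr4:109665372, had 6 CpG and no GC box. The median over all windows was 13 CpG where the start lay under a peak region of any list and 2 where it did not. A match is a description of the letters only. The motifs TGANTCA, TTTGGCGC and TATAAA and the kappaB motif, held by 5.48%, 0.344%, 9.96% and 3.18% of windows, were searched as well and are not found in the 6 sequences shown.

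Of the 78 regions 7 were present in all 14 lists, which is 8.97% against 4.05% of all regions, and 31 were present in 1 list only (39.7% against 38.9%). The regions found everywhere were unevenly spread among the members. Cdkn1b had 4 of 9 regions in all 14 lists, Cdkn2d 2 of 9 and Cdkn1a 1 of 19, and the other members had none among 18 regions for Cdkn1c, 11 for Cdkn2a, 16 for Cdkn2b and 7 for Cdkn2c. All 11 regions of Cdkn2a also lay within 50 kb of Cdkn2b, so these members share their surroundings.

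**Figure D1:**
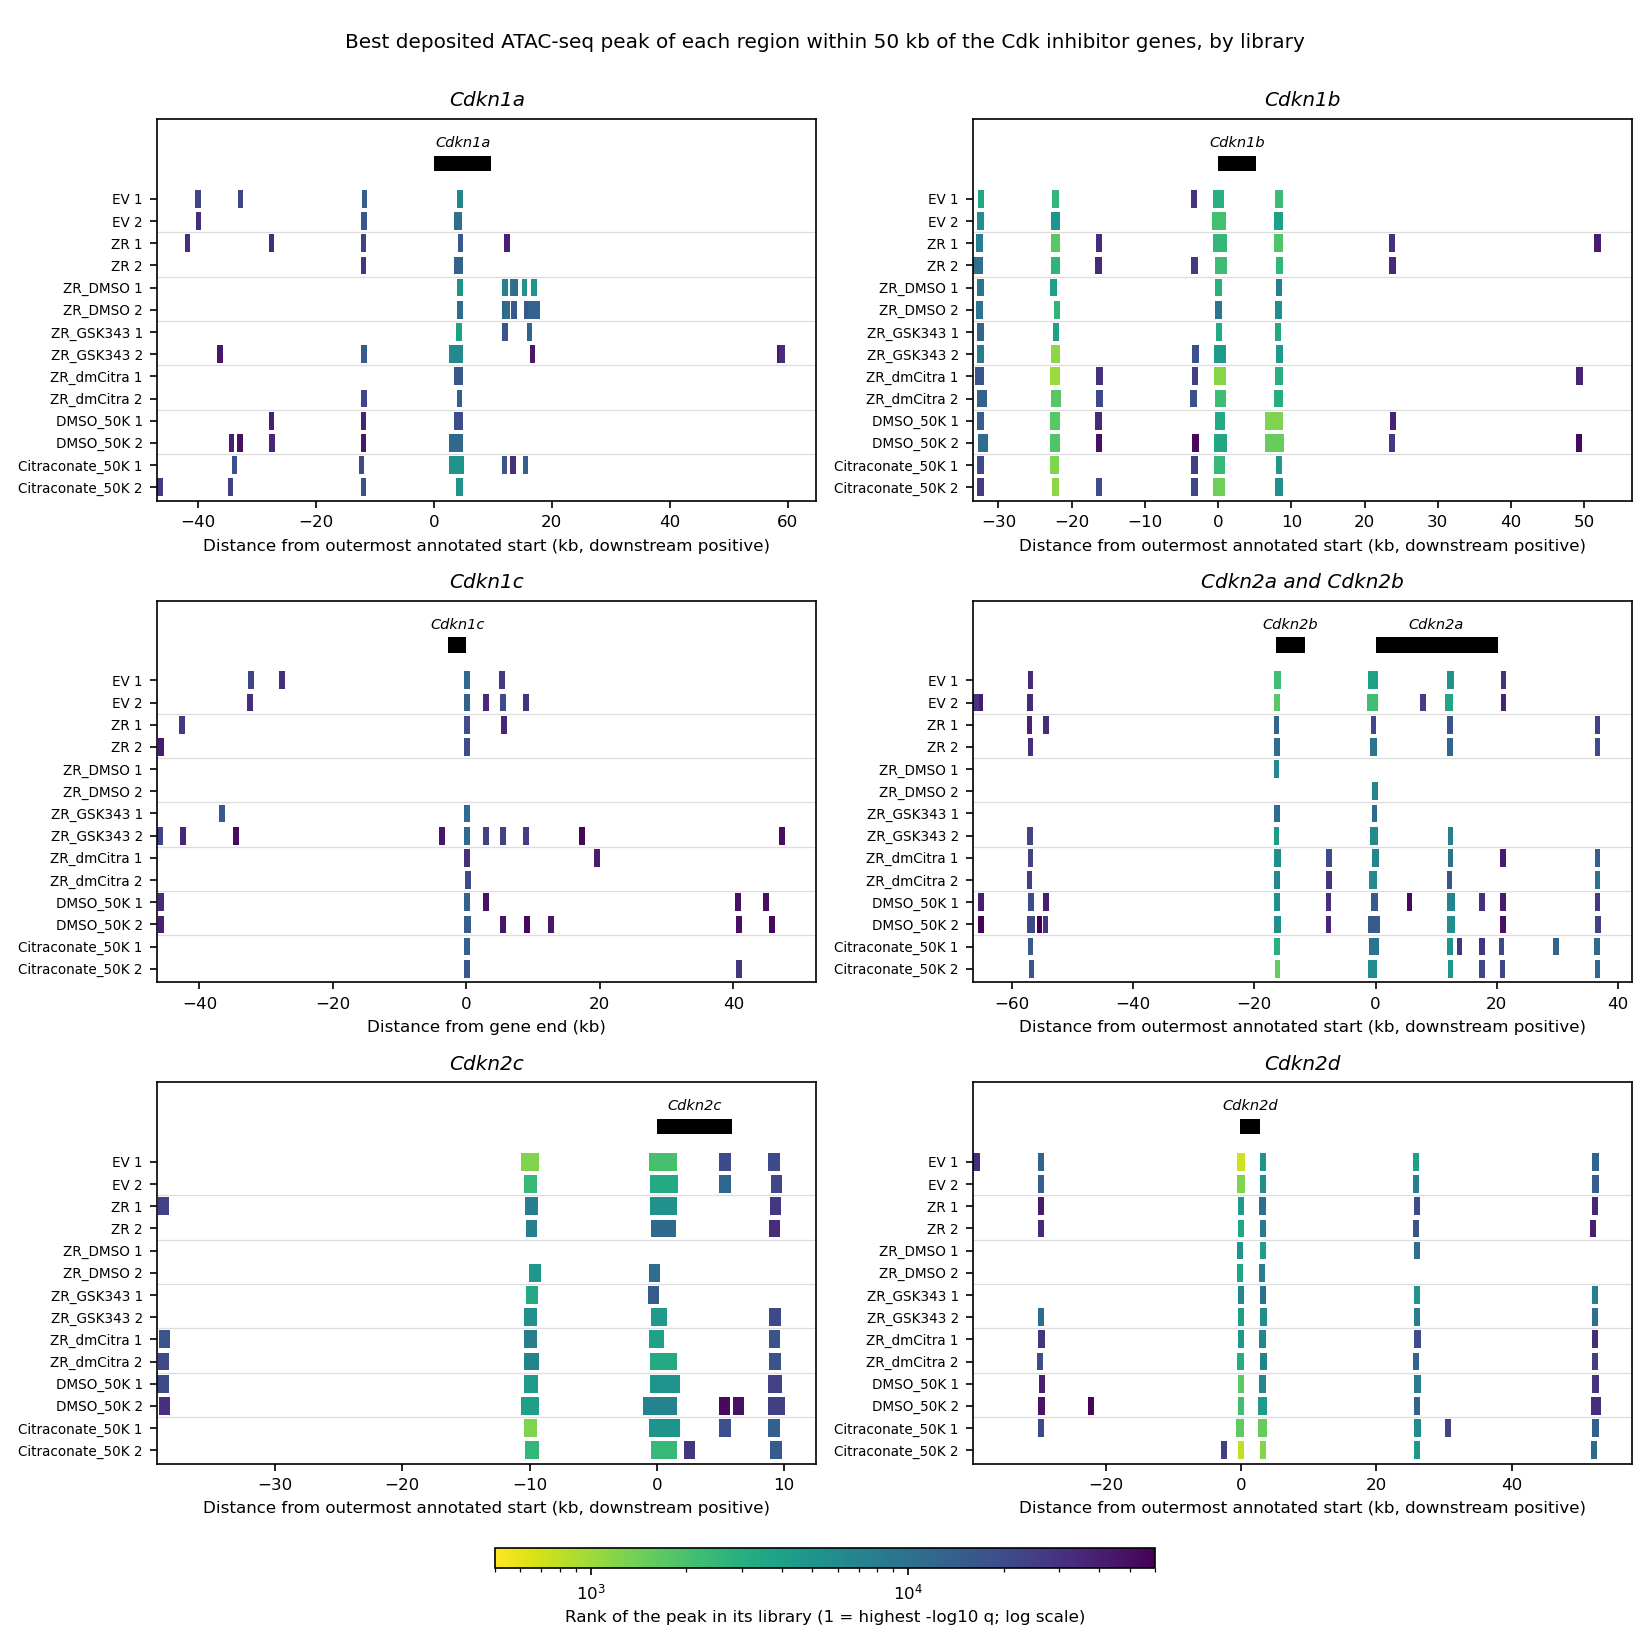
Peaks around each Cdk inhibitor gene in the 14 libraries (one line per library; x axis, distance in kb from the outermost annotated start or, for Cdkn1c, from a gene end; black bar, gene body). The best peak of each region is drawn, coloured by its rank in its library on a log scale, and peaks narrower than 0.9 kb are drawn at 0.9 kb; the Cdkn1b panel has 4 columns filled in all 14 libraries, and the Cdkn1c panel is empty in both ZR_DMSO libraries.

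Peaks were compared by their rank in their own library, where rank 1 is the peak with the highest −log10 q and a larger rank means a weaker peak. Ordered by the median rank over the lists that had the peak, the 8 start regions of the members ran from Cdkn1b (2662, 14 lists) through Cdkn2d (3332, 14 lists), Cdkn2c (5020, 13 lists), Cdkn2b (5516, 13 lists), Cdkn2a at Arf (6940, 13 lists), Cdkn2a at Ink4a (7063, 11 lists) and Cdkn1a (10528, 14 lists) to Cdkn1c (14493.5, 12 lists). The ranges of neighbours in this order overlapped throughout. At Cdkn1c, whose strand and start were not in the tables used, the region at the gene end at chr7:143461059 was taken.

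**Figure D2:**
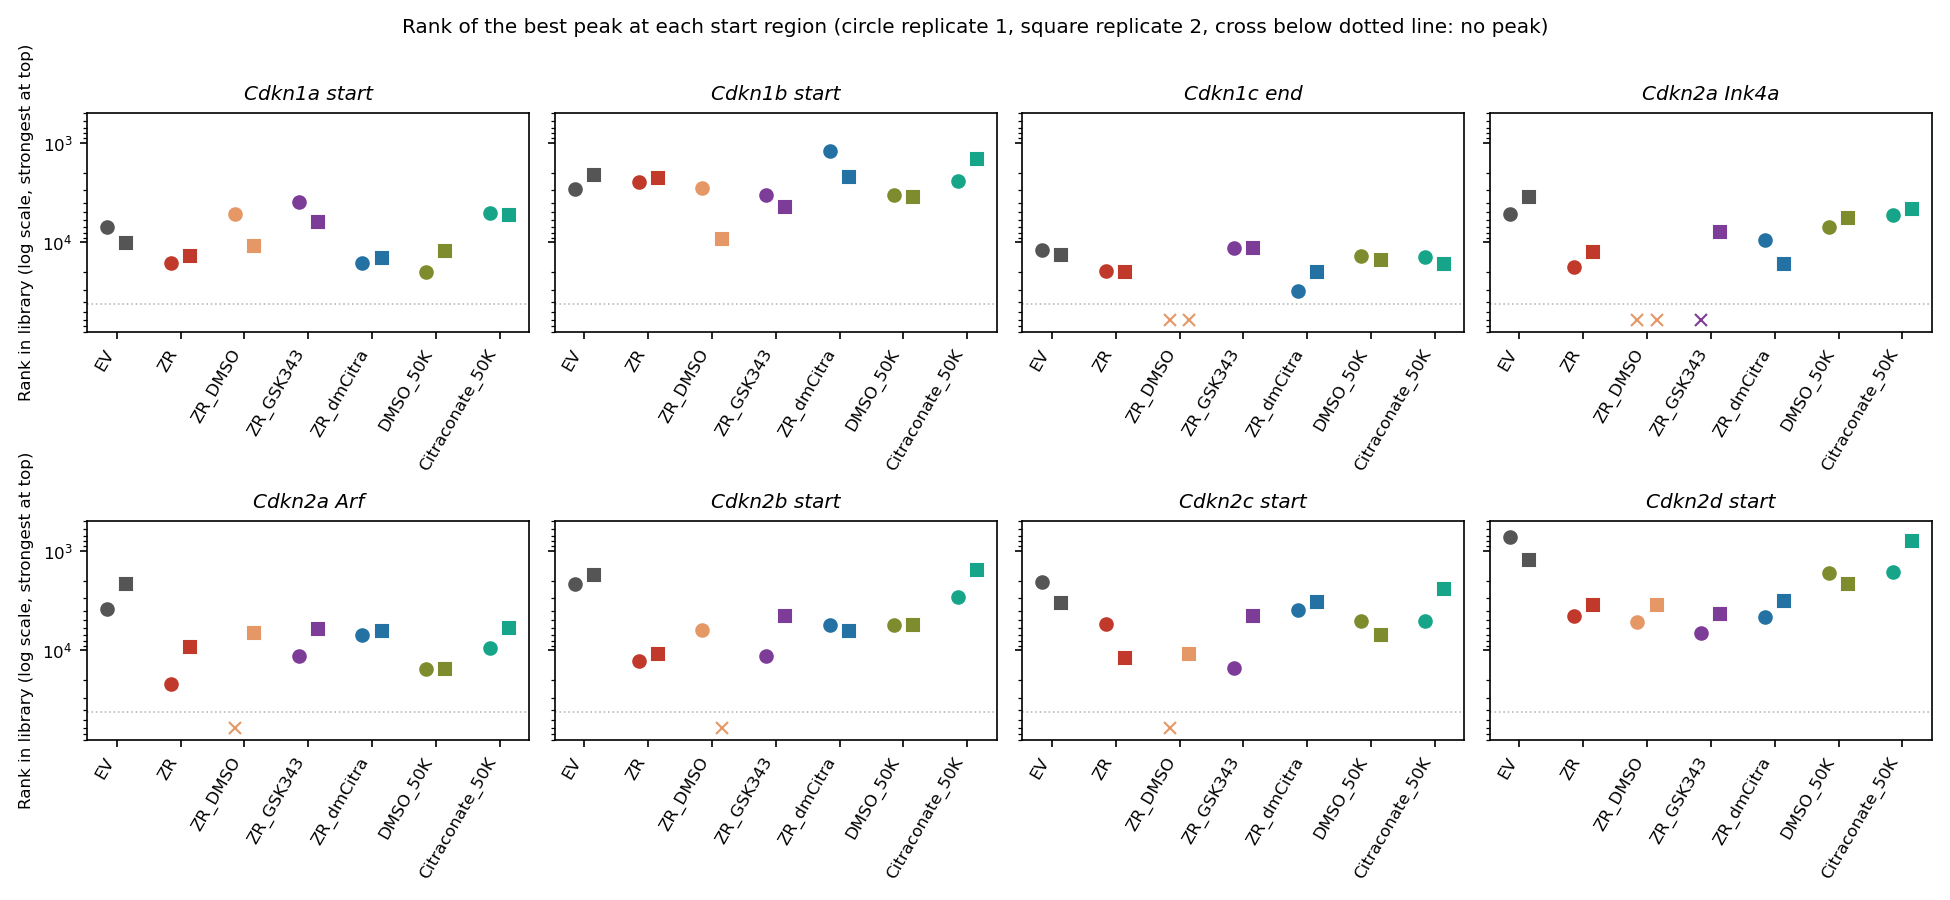
Rank of the best peak at each of the 8 start regions in every library (y axis, rank in the library on a log scale with the strongest at the top; circle, replicate 1; square, replicate 2; a cross below the dotted line, no peak). EV lies above ZR in 7 of the 8 panels, and at Cdkn2d the 2 EV libraries stand at 720 and 1231 against 4486 and 3508 in ZR.

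The first comparison asked how chromatin at these genes differed between fusion cells and empty vector cells. At 7 of the 8 start regions both ZR libraries ranked lower than both EV libraries, Cdkn1b being the exception, and no start region ranked higher. Over all 10057 promoter regions 47.0% ranked lower and 23.6% higher by the same rule, and on chromosome 4 84.8% ranked lower and 2.69% higher. The 4 libraries allow 3 splits into pairs, and an exact permutation test (two-sided) cannot give a p under 0.333, so no single region could pass 0.05 here or in the other comparisons. Presence did not differ in the same way: of the 6 members whose gene end had a peak 1 kb away or less, 0 gained and 0 lost it, where 3.08% of all protein-coding genes with such a peak gained one and 6.91% lost it.

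Among the Ink4 genes, Cdkn2b (encoding p15, chr4:89306289-89311032) had the largest shift. With positions counted among the 5180 regions that all 14 lists contain, Cdkn2d had the larger one, 1.72 against 1.48. Such a position is 1 plus the number of those regions ranked better in the library, also for regions that some lists lack. The Cdkn2b start region is in 13 lists. This scale compresses large ranks, and 21690 at Arf in ZR replicate 1 became 5014. The Cdkn2b start region ranked 2157 and 1733 in EV and 12709 and 10911 in ZR. The ZR ranks were 6.09 times those of EV as a ratio of geometric means, a shift of 2.61 on the log2 scale. The noncoding gene Gm12610 overlaps this region, and the peak cannot be assigned to one of the 2 genes. Cdkn2a (chr4:89274473-89294619) has 2 start regions. The Arf region ranked 3802 and 2154 in EV and 21690 and 9292 in ZR, a shift of 2.31. Gm12610 overlaps the Arf region as well, so that peak cannot be assigned to a single gene either. The Ink4a region ranked 5216 and 3484 in EV and 17661 and 12375 in ZR, a shift of 1.79. At both starts every ZR value lay beyond every EV value, although the 2 ZR libraries differed widely from each other at Arf.

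Cdkn2c (encoding p18, chr4:109660876-109666756) ranked 2069 and 3356 in EV and 5424 and 11846 in ZR, a shift of 1.61. Its 2 annotated starts lie in 1 region. Cdkn2d (encoding p19, chr9:21288459-21291421) ranked 720 and 1231 in EV, the best rank of any member start region in the 14 lists, and 4486 and 3508 in ZR, a shift of 2.08. The median shift was 0.28 over all promoter regions and 1.14 over the 631 on chromosome 4, with 95th percentiles of 1.91 and 2.69. The Cdkn2a Arf, Cdkn2b and Cdkn2d shifts thus lay above the 95th percentile of all promoters, and those of the chromosome 4 members lay below the 95th percentile of their own chromosome.

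Shifts of the same direction extended around some of these genes. Within 5 Mb of Cdkn2a and Cdkn2b the 31 other promoter regions had a median shift of 2.44, and 96.8% of them ranked lower in ZR. Around Cdkn2c the median was 1.18 over 39 regions, close to the 1.13 of the other chromosome 4 promoters. Around Cdkn2d, on chromosome 9, it was 1.0 over 47 regions, of which 83.0% ranked lower, against a median of 0.5 over the other promoters of chromosome 9. The part of these surroundings in the members' values was not tested.

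Among the Cip/Kip genes the shifts were smaller. Cdkn1a (encoding p21, chr17:29090979-29100722) ranked 6942 and 10102 in EV and 15995 and 13563 in ZR, a shift of 0.81, with a median of 0.4 over the 145 other promoters within 5 Mb. Its region spanned chr17:29093467-29096043, and the summit of its best peak lay 1616 to 1825 bp downstream of the second start in all 14 lists, inside the gene body. Cdkn1b (encoding p27, chr6:134920401-134925525) ranked 2909 and 2090 in EV and 2465 and 2240 in ZR, so the groups overlapped and the shift was -0.07. The 27 other promoters within 5 Mb of Cdkn1b had a median of -0.7. Cdkn1c (encoding p57, chr7:143458339-143461059) ranked 11977 and 13286 in EV and 19506 and 20028 in ZR, a shift of 0.65, while the 56 other promoters within 5 Mb had a median of -0.3. Its ZR libraries agreed closely and lay apart from EV.

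**Figure D3:**
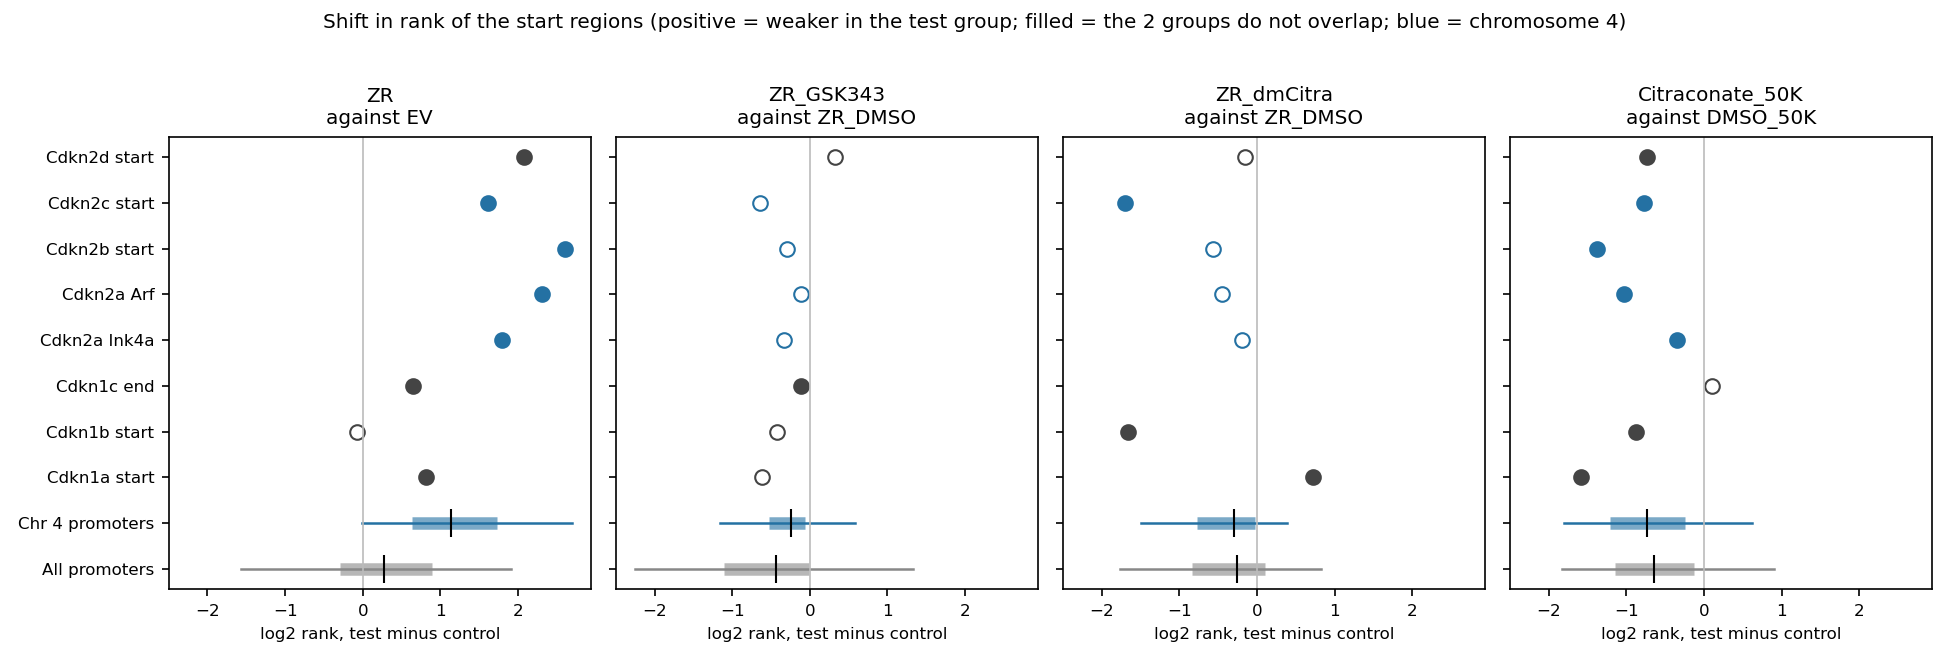
Shift in rank of each start region in the 4 comparisons (x axis, mean log2 rank of the test group minus that of the control group, so that positive means weaker in the test group; filled points, the 2 groups do not overlap; blue, chromosome 4). The bars below show all promoter regions and those of chromosome 4 (thick, 25th to 75th percentile; thin, 5th to 95th; tick, median); against EV the ZR points run from -0.07 at Cdkn1b to 2.61 at Cdkn2b, and Cdkn1c is not drawn for ZR_dmCitra because none of the 4 shortened lists has its peak.

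Peak width was compared on the lists as deposited. The bases under peaks were fewer in both ZR libraries than in both EV libraries at 5 start regions, Cdkn2a Ink4a, Cdkn2a Arf, Cdkn2b, Cdkn2c and Cdkn2d, and more at none, where 25.5% of all promoter regions were narrower and 30.8% wider. At Ink4a peaks covered 1058 and 1450 bp in EV and 476 and 541 bp in ZR. At Arf they covered 1559 and 1758 bp in EV and 915 and 1008 bp in ZR. At Cdkn2d they covered 1191 and 1105 bp against 834 and 841 bp. Cdkn1b kept 1608 and 1853 bp in EV and 1937 and 1640 bp in ZR, which overlap. Width and q come from the same reads and are not separate evidence.

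**Figure D4:**
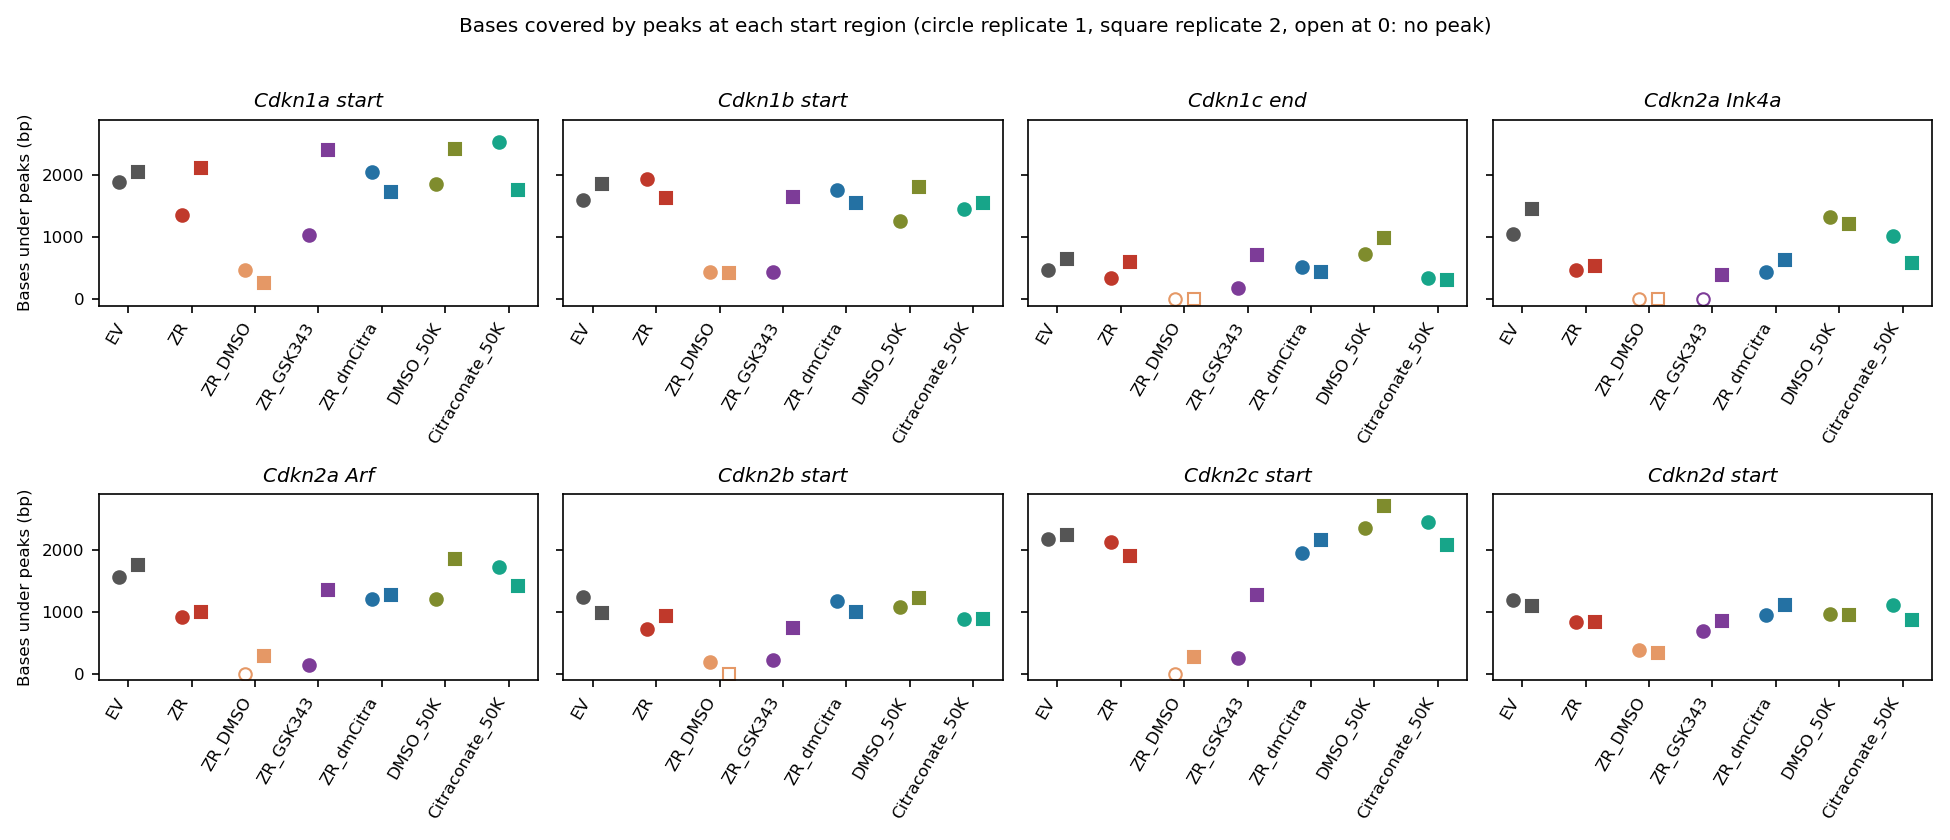
Bases covered by peaks at each start region in every library (y axis, bp; circle, replicate 1; square, replicate 2; open symbol at 0, no peak). At Cdkn2a Ink4a the 2 EV libraries stand at 1058 and 1450 bp above 476 and 541 bp in ZR, and the ZR_DMSO libraries stand at 472 bp or less in every panel.

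Away from the starts, lists were cut to an equal length of 34989 peaks, and a region was called gained when both ZR lists and neither EV list had it, and lost in the reverse case. Of 38 member regions present in any of the 4 lists 6 were lost and 1 was gained, and 15 were in all 4. Over the genome 19.6% of 58737 regions were lost and 22.0% gained, so the lost share of 15.8% was near the background and the gained share of 2.63% was below it. On chromosome 4 the background was 30.7% lost and 9.77% gained.

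The gained region, chr4:89257726-89258299, lay beyond the 3′ side of Cdkn2a. It ranked 24351 and 20028 in ZR, 14702 and 10312 in ZR_dmCitra, 26665 and 23774 in DMSO_50K and 11931 and 12841 in Citraconate_50K. No EV, ZR_DMSO or ZR_GSK343 list had it, although the last 2 groups are of the fusion line. The DMSO_50K libraries, labelled as empty vector, thus carried a peak that the EV libraries did not. On the lists as deposited, 2 more regions were gained, chr6:134903913-134904437 and chr6:134943887-134944429, both near Cdkn1b, and the count was 3 gained and 4 lost, where 22.5% of all regions were gained and 15.8% lost.

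One lost region lay inside Cdkn2c, chr4:109661209-109661590, and ranked 20356 and 12666 in EV. It was in neither ZR list but returned in DMSO_50K replicate 2 (rank 51774) and Citraconate_50K replicate 1 (rank 18684). Both EV lists, and no other, had a region upstream of Cdkn1a, chr17:29050691-29051392, and a region near Cdkn1c, chr7:143428489-143428960, and both ranked 22287 and 32180, tied with other weak peaks. A further region near Cdkn1c, chr7:143466386-143466784, overlapped the gene model Gm33663 and stayed in the deposited list of ZR replicate 1 at rank 35956. The last pair lay in the Cdkn2d window, over Keap1 (encoding the repressor of NRF2) at chr9:21238048-21239400 and over Slc44a2 and Gm39302 at chr9:21320455-21321199. These were 49059 and 29034 bp from the Cdkn2d body. The Keap1 region ranked 12814 and 14673 in EV, and both deposited ZR lists had it at 35956 and 40326, below the limit of 34989. Only 2 of the 6 lost regions lay within 20 kb of a member. Leaving out a library loosens the rule to 1 list of a group: without ZR replicate 2 the count was 7 gained, without EV replicate 1 it was 3 gained and 9 lost, and without EV replicate 2 it was 10 lost. No share over all regions or promoter regions is given for this looser rule, here or in the other comparisons.

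The Cdkn2d gene has a region at its other end, chr9:21287334-21288795, shared with Kri1 and present in all 14 lists. It ranked 4961 and 5830 in EV and 10813 and 8573 in ZR, without overlap. By the same rule 55.7% of chromosome 9 promoter regions ranked lower in ZR, and 83.0% of the 47 near Cdkn2d did. Near Cdkn2c, the best region of its surroundings was a peak in Faf1, chr4:109676028-109677414, at 1241 and 2378 in EV and 7984 and 7688 in ZR. Near Cdkn1b, the best region was chr6:134897454-134899010 over Gpr19 and 2810454H06Rik, at 2478 and 4824 in EV and 1731 and 2652 in ZR. A region over Lockd, a noncoding gene just downstream of Cdkn1b, at chr6:134926738-134929412, ranked 2271 and 3901 in EV and 1886 and 2547 in ZR. The ranks overlapped between EV and ZR at both Cdkn1b neighbours, as at the Cdkn1b start itself.

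The partners of these inhibitors were followed through a list of 37 cell cycle genes, cyclins, Cdks, the retinoblastoma and E2F families, p53 regulators and Polycomb genes. Of the 33 with a gene-end peak in any of the 4 lists, 1 was gained in ZR and 0 were lost, against the 3.08% and 6.91% of all protein-coding genes. The gained gene was Cdk6, a target of the Ink4 proteins, at ranks 6655 and 6008 in ZR with no gene-end peak in either EV list. The DMSO_50K libraries, labelled as empty vector, had one too, at 5061 and 6775, and ZR_DMSO replicate 1 had none.

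The second comparison asked what inhibition of EZH2 did in fusion cells, with ZR_DMSO as the control and lists of 12390 peaks. The start region of Cdkn1c alone ranked higher in both ZR_GSK343 libraries than in both ZR_DMSO libraries, at 11401 and 11417 against no peak, and 0 ranked lower. Over 7879 promoter regions 45.0% ranked higher and 9.77% lower, so 1 of 8 was below the background. On chromosome 4 28.6% ranked higher and 3.52% lower. The Cdkn1c shift was -0.12, with a missing peak counted just beyond the limit, and its 2 ZR_GSK343 values lay close to the limit. The 11401 of replicate 1 is a rank shared by 1694 peaks tied at the limit. Of these 990 were kept by a random draw that left the Cdkn1c peak out. The higher rank of Cdkn1c thus rests on tied peaks sharing their best rank.

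At the Cdkn2a and Cdkn2b locus the libraries of each group disagreed. At Ink4a neither ZR_DMSO list had a peak, and of the ZR_GSK343 lists replicate 2 had one, at rank 7820. At Arf ZR_DMSO replicate 2 ranked 6611 and replicate 1 had no peak, and ZR_GSK343 ranked 11401 and 6059. At Cdkn2b ZR_DMSO replicate 1 ranked 6266 and replicate 2 had no peak, and ZR_GSK343 ranked 11401 and 4531. At Cdkn2c ZR_DMSO replicate 2 ranked 10954 and replicate 1 had no peak, and ZR_GSK343 ranked 15096 and 4531. In each case the groups overlapped, and the shifts of -0.33, -0.12, -0.29 and -0.64 lay beside a median of -0.24 over chromosome 4 promoters.

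The remaining starts overlapped too. Cdkn2d ranked 5133 and 3517 in ZR_DMSO and 6724 and 4267 in ZR_GSK343, a shift of 0.33. Cdkn1a ranked 5133 and 10954 in ZR_DMSO and 3890 and 6246 in ZR_GSK343, and Cdkn1b ranked 2859 and 9261 against 3353 and 4388. Peaks were wider in both ZR_GSK343 libraries at 5 of 8 start regions, and narrower at 0, where 65.3% of all promoter regions were wider and 0.0708% narrower. The count of 1 start region ranked higher became 5 without ZR_GSK343 replicate 1, 4 without ZR_DMSO replicate 1 and 2 without either of the replicates numbered 2. With ZR as the control 2 start regions, Cdkn1a and Cdkn1c, ranked higher in ZR_GSK343 and 1, Cdkn1b, ranked lower, where 42.7% and 21.1% of promoter regions did. The Cdkn1a ranks are those of the peak inside the gene body. In the window of its second start ZR_GSK343 replicate 1 had no peak and replicate 2 ranked 6246. ZR ranked 24351 and 18054 in that window, so the groups did not separate there.

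Of 21 member regions 1 was gained, the Keap1 region 49059 bp from Cdkn2d, at ranks 7663 and 10082 in ZR_GSK343 with no peak in ZR_DMSO, and 0 were lost. The background was 10.7% gained and 7.89% lost. On the lists as deposited 2 member regions were gained and 2 lost, against 7.97% and 0.744% of all regions. The count became 4 gained without ZR_GSK343 replicate 1, 4 gained and 5 lost without ZR_DMSO replicate 1, and 2 gained and 5 lost without ZR_DMSO replicate 2. Among the cell cycle genes 5 of 30 gained a gene-end peak, Ccne2, Rb1, Rbl1, E2f6 and Cdc25b, and 0 lost one, against 20.4% and 0.373% of protein-coding genes. Of the 6 members with such a peak 0 gained and 0 lost it. Rb1, which encodes the retinoblastoma protein that the Ink4 proteins act through, ranked 1831 and 1868 in ZR_GSK343 and 10954 in ZR_DMSO replicate 2. That last peak was one of 2221 tied at the limit, of which 1437 were kept by a random draw that left it out. With tied peaks kept, Rb1 was not gained and the count was 4.

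A run of short peaks just downstream of Cdkn1a appeared mainly in the ZR_DMSO lists. It was singled out after its values were seen. Between chr17:29102887 and chr17:29108552 there were 8 regions, of which ZR_DMSO had 5 and 6, ZR_GSK343 2 and 1, Citraconate_50K replicate 1 had 3 and ZR replicate 1 had 1. The other 8 lists had none. The best ranks were 5133 and 10954 in ZR_DMSO, tied with many other peaks.

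The third comparison asked what citraconate, named in the study design as an antagonist of ACOD1, did in fusion cells, again against ZR_DMSO. The start regions of Cdkn1b and Cdkn2c ranked higher in both ZR_dmCitra libraries and that of Cdkn1a ranked lower, while 40.6% of 6439 promoter regions ranked higher and 9.04% lower, and on chromosome 4 44.8% and 2.78%. Cdkn1b ranked 1200 and 2195 in ZR_dmCitra and 2859 and 9261 in ZR_DMSO, a shift of -1.66. Cdkn2c ranked 3903 and 3283 in ZR_dmCitra, against 10954 in ZR_DMSO replicate 2 and no peak in replicate 1, a shift of -1.70. With positions counted among the regions that all 14 lists contain, these shifts were -0.95 at Cdkn1b and -0.81 at Cdkn2c. Cdkn1a ranked 16228 and 14187 in ZR_dmCitra, beyond the limit of 12390, and 5133 and 10954 in ZR_DMSO, a shift of at least 0.72 because ranks past the limit were set to it. These are ranks of the peak inside the gene body. The 10954 is shared by 2221 peaks tied at the limit, and the random draw at equal length left the Cdkn1a peak out. In the window of the second start itself ZR_DMSO replicate 1 ranked 9245, replicate 2 had no peak, and ZR_dmCitra ranked 21086 and 20820, so the groups did not separate there. The median over all promoters was -0.26. Over the 66 other promoters within 5 Mb of Cdkn1a it was 0.21, and 19.7% of them ranked lower and 6.06% higher.

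The other starts overlapped, except Cdkn1c, which was outside all 4 shortened lists. Ink4a ranked 9496 and 16619 in ZR_dmCitra and had no peak in ZR_DMSO. It overlapped only because 16619 is past the limit and counted like a missing peak. Arf ranked 6940 and 6342 beside 6611 in ZR_DMSO replicate 2. Cdkn2b ranked 5558 and 6342 beside 6266 in ZR_DMSO replicate 1. Cdkn2d ranked 4650 and 3156 beside 5133 and 3517. Cdkn1c ranked 30869 and 19627 in ZR_dmCitra and had no peak in ZR_DMSO. Peaks were wider in ZR_dmCitra at 8 of 8 start regions, where 92.7% of all promoter regions were wider and 0.127% narrower, so the width says nothing particular to the members.

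With ZR in place of ZR_DMSO as the control, the lists could be compared at 44033 peaks. Then 4 start regions, Cdkn1b, Cdkn2a Arf, Cdkn2b and Cdkn2c, ranked higher in both ZR_dmCitra libraries than in both ZR libraries, and 0 ranked lower, where 26.7% of promoter regions ranked higher and 24.4% lower. The Cdkn1a values of 16228 and 14187 overlapped the 15995 and 13563 of ZR, so the lower rank of Cdkn1a was seen against ZR_DMSO only. Arf ranked 6940 and 6342 against 21690 and 9292 in ZR. Leaving out any 1 of the 4 libraries of the comparison with ZR_DMSO gave 4 start regions ranked higher and 1 lower.

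Of 19 member regions 0 were gained and 1 was lost, against 12.4% and 6.62% of all regions. The lost region, chr6:134886990-134889095 over Gpr19 near Cdkn1b, was in all 14 deposited lists, at 9245 and 9261 in ZR_DMSO and 17056 and 13514 in ZR_dmCitra. On the lists as deposited 11 member regions were gained and 4 lost, where 36.0% of all regions were gained and 0.601% lost. The 4 were part of the run downstream of Cdkn1a, and those gained included the start regions of Ink4a and Cdkn1c. How many member regions the uncut lists hold is not given, here or in the other comparisons. At equal length the count became 5 gained and 6 lost without ZR_DMSO replicate 1, 3 gained and 8 lost without ZR_DMSO replicate 2, and 1 gained without either ZR_dmCitra library. Among the cell cycle genes 2 of 26 gained a gene-end peak, Ccne2 and Rb1, and 1 lost it, Cbx8, against 12% and 1.55% of protein-coding genes. Rb1 rests on the same draw among tied peaks of ZR_DMSO replicate 2, and with ties kept Ccne2 alone was gained. Of the 5 members with such a peak 0 gained and 0 lost it.

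Citraconate_50K was compared last, with DMSO_50K as its control and lists of 29432 peaks. At 7 of 8 start regions both Citraconate_50K libraries ranked higher than both DMSO_50K libraries, Cdkn1c being the exception, and 0 ranked lower. Over 9280 promoter regions 60.6% ranked higher and 10.4% lower, and on chromosome 4 67.9% and 6.01%. Cdkn1a had the largest shift, -1.59, at 5020 and 5261 in Citraconate_50K and 19626 and 12229 in DMSO_50K, against a median of -0.65 over all promoters and of -1.14 over the 142 others within 5 Mb. Its Citraconate_50K libraries agreed closely and lay apart from both controls. In the window of its second start the ranks were 5020 and 6789 against 26665 and 12229, again apart. With positions counted among the regions that all 14 lists contain, the Cdkn1a shift was -0.34, and Cdkn2b had the largest, -0.67.

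Cdkn2b ranked 2921 and 1542 in Citraconate_50K and 5497 and 5516 in DMSO_50K, a shift of -1.38. Arf ranked 9523 and 5986 against 15537 and 15368, a shift of -1.03. Ink4a ranked 5357 and 4636 against 7063 and 5675, a shift of -0.35, the smallest of the Cdkn2a and Cdkn2b locus. The order of the 2 Cdkn2a starts within a library also differed by group. In DMSO_50K, Citraconate_50K and ZR replicate 1 Ink4a ranked better than Arf, and in both EV libraries, ZR replicate 2, ZR_GSK343 replicate 2 and both ZR_dmCitra libraries Arf ranked better than Ink4a.

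Cdkn2c ranked 5020 and 2415 in Citraconate_50K and 5061 and 7014 in DMSO_50K, a shift of -0.77 in which the values of the 2 replicates numbered 1 nearly met. Cdkn2d ranked 1619 and 795 against 1661 and 2164, a shift of -0.74. In Citraconate_50K replicate 1, 337 tied peaks share the rank 5020 of Cdkn2c, 107 the 1619 of Cdkn2d and 376 the 5357 of Ink4a. Each of these ties reaches past the nearest DMSO_50K rank, so the separation there rests on ties taking their best rank. Cdkn1b ranked 2401 and 1436 against 3364 and 3460, a shift of -0.88. Cdkn1c ranked 14081 and 16578 against 13548 and 14906, a shift of 0.10 with overlap. Positions counted among the regions that all 14 lists contain gave every library the same number of ranks. No share of all promoter regions is given for this scale. On it 3 start regions ranked higher and 1 ranked lower, and the Ink4a shift turned to 0.14. Widths went the other way, with 3 start regions narrower, Cdkn1c, Ink4a and Cdkn2b, and 0 wider, where 43.7% of promoter regions were narrower and 6.23% wider.

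Of 37 member regions 6 were gained and 0 lost, against 9.01% and 17.2% of all regions. They were chr17:29056256-29057251 over Gm41556 and chr17:29078329-29079368 over Trp53cor1, a p53-regulated noncoding gene upstream of Cdkn1a, chr4:89273167-89274024 beside Cdkn2a, chr4:89276971-89277167 inside Cdkn2a, chr6:134916793-134917442 upstream of Cdkn1b and the Keap1 region. All 6 were weak, at ranks 11860 to 28543 in Citraconate_50K. On the lists as deposited, which were longer in DMSO_50K, 0 member regions were gained and 7 lost, where 1.33% of all regions were gained and 30.2% lost. At equal length the gained count became 11 without Citraconate_50K replicate 1 and 12 without replicate 2. Among the cell cycle genes 2 of 33 gained a gene-end peak, E2f2 and Ring1, and 1 lost it, Ccnd2, against 7.37% and 1.47% of protein-coding genes. Of the 6 members with such a peak 0 gained and 0 lost it.

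The genes whose best gene-end peak moved most like that of a member over the 14 libraries were found by Pearson correlation of the log10 rank among 10853 genes. These correlations share libraries and list lengths and are descriptions only. The 3 nearest genes of Cdkn2b (Rngtt, Gm13272 and Ctps, r = 0.949 to 0.921) and of Cdkn2c (Ndufb6, Topors and Smim27, r = 0.879 to 0.868) were all on chromosome 4 with them. Those of Cdkn2d (Nudt2, Kif24 and Snx30, r = 0.944 to 0.942) were on chromosome 4 too, although Cdkn2d is on chromosome 9. Cdkn2a was nearest to Leprotl1, Ephb3 and Fnip2 (r = 0.87 to 0.863), Cdkn1b to Lin37, Zswim4 and Clasp1 (r = 0.858 to 0.845) and Cdkn1c to Zfp651, Scaper and Zfp579 (r = 0.93 to 0.865), none of them on the member's chromosome except Zfp579. The median correlation of the members with all genes was 0.06 to 0.234. Cdkn1a had no gene-end peak within 1 kb in any list and was left out.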

How the data were processed

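ATAC-seq peak lists of 14 libraries in 7 groups of 2 were used, grouped by titles and characteristics. Per the submitters' processing notes, reads were mapped to mm10 and BWA, SAMtools and Picard were used, without versions. Peak names in the deposited files show separate MACS2 calls for each library. For a correction of Tn5 offsets nothing is stated. Every deposited peak carries a score, a fold enrichment (a ratio), −log10 p-values and q-values and a summit offset, all the authors' own, used only to describe and rank peaks within a list. Read counts are not in these lists, so depth is unknown and no counting interval is given.

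Peaks on chromosomes 1 to 19, X and Y that overlapped by at least 1 bp were merged into regions, and RefSeq (GRCm38.p6) gave genes, starts and promoter windows from 250 bases before to 50 after a start. Promoter regions are regions that overlap such a window, with the 8 member start regions, and gene-end peaks lie within 1 kb of either end of a gene. Ranks followed −log10 q, ties sharing a rank. At equal length, peaks tied at the limit were drawn at random with seed 1. A missing peak, or a rank past the limit, counted as the limit plus 1. For ranking among regions of all 14 lists, a position was 1 plus the number of those regions ranked better in the library. Regions that some lists lack were placed on this scale too. Groups were called different where the libraries did not overlap; no p-value was computed over members. The regions named were the start regions, the best-ranked region of each member and every region gained or lost, with the genes over them; from the cell cycle list, genes gained or lost at a gene end; and the 3 genes most alike in rank for each member. The run downstream of Cdkn1a, the regions called on the lists as deposited, the Lockd region and the region at the other end of Cdkn2d were named after their values were seen. The members and lists were chosen with earlier results of these data known. Alternatives were uncut lists as deposited, a minimum −log10 q of 5, a peak over at least 50% of a region, a window of 20 kb, gene-end windows of 500 bp and 2 kb, ranking by fold or among regions of all 14 lists, ZR as control, ties kept or dropped, a replicate block and leaving out each library. Python 3.11.15, pandas 2.3.3, NumPy 2.4.6, SciPy 1.17.1 and matplotlib 3.10.9 were used, and the calls were tested on simulated lists.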

Additional observations from a re-analysis of the deposited data

Results flagged for a closer look

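The region at Cdkn1a moved in opposite directions in the 2 comparisons that involve citraconate. Its ranks are those of a peak inside the gene body, downstream of the second start. It ranked lower in ZR_dmCitra than in ZR_DMSO, with a shift of at least 0.72 on the log2 rank scale, and higher in Citraconate_50K than in DMSO_50K, with a shift of -1.59. Among the regions that all 14 lists contain the shifts were 0.42 and -0.34. Both libraries of each treated group lay on the same side of both controls. With ZR in place of ZR_DMSO the ranks overlapped. In the window of the second start itself ZR_DMSO replicate 1 ranked 9245, replicate 2 had no peak and ZR_dmCitra ranked 21086 and 20820, so that the opposite direction was not seen there. The other promoters within 5 Mb of Cdkn1a moved in the same 2 directions. Their median was 0.21 over 66 regions in ZR_dmCitra and -1.14 over 142 regions in Citraconate_50K. The part of these surroundings in the Cdkn1a values was not tested, and neither was the difference between the comparisons. The controls were a fusion line in the first and libraries labelled as empty vector in the second, so treatment and line cannot be told apart in the second.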

How the results depend on the processing

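Lists without read counts, 2 libraries per group and ZR_DMSO lists of short peaks limit every value here. The lower ranks in ZR than in EV were counted at 7 of 8 start regions under ranking by fold, ranking among the regions all 14 lists contain, and the replicate block. Leaving out libraries gave 7 to 8 lower and 0 to 1 higher. Ranking by fold left all 8 shifts unchanged, so it adds no separate check. Regions whose groups do not overlap stay apart under the block or with a library left out. These 2 settings could therefore only keep or raise a count, here and in the other comparisons. With positions counted among shared regions, a scale that compresses large ranks, all 8 shifts were smaller in size. They were Cdkn2d 1.72, then the largest, Cdkn2b 1.48, Arf 1.06, Cdkn2c 0.91, Ink4a 0.68, Cdkn1a 0.21, Cdkn1c 0.10 and Cdkn1b -0.04. Of the comparison of Citraconate_50K with DMSO_50K, the 7 start regions ranked higher became 3, with 1 lower, on this scale, and Ink4a reversed to 0.14. The cause was not tested.

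For regions, the lists as deposited gave 3 gained in ZR against EV, 2 gained and 2 lost in ZR_GSK343, 11 gained and 4 lost in ZR_dmCitra, and 0 gained and 7 lost in Citraconate_50K. With −log10 q of at least 5 the gained counts were 2 in ZR_GSK343, 1 in ZR_dmCitra and 3 in Citraconate_50K. A peak over at least 50% of a region gave 0 gained in ZR against EV, 4 gained in ZR_GSK343, 7 gained and 0 lost in ZR_dmCitra, and 2 gained and 2 lost in Citraconate_50K. A window of 20 kb, which holds fewer regions, left 2 lost in ZR against EV, 0 gained in ZR_GSK343 and 0 lost in ZR_dmCitra. Keeping ties at the limit gave 2 gained in ZR_GSK343 and 2 lost in ZR_dmCitra, and dropping them 1 gained in ZR_dmCitra. With ZR as control ZR_GSK343 gained 2 regions, with 2 start regions ranked higher and 1 lower, and ZR_dmCitra gained 1, with 4 higher and 0 lower. With positions counted among shared regions ZR_GSK343 had 1 start region ranked lower and ZR_dmCitra 4 ranked higher.

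Leaving out each library gave 1 to 7 gained and 6 to 10 lost in ZR against EV, 1 to 4 gained and 0 to 5 lost in ZR_GSK343, 1 to 5 gained and 1 to 8 lost in ZR_dmCitra, and 6 to 12 gained and 0 to 1 lost in Citraconate_50K. For start regions it gave 2 to 5 higher and 0 to 1 lower in ZR_GSK343, 4 higher and 1 lower in ZR_dmCitra, and 7 higher and 0 to 1 lower in Citraconate_50K. Shares over all regions or promoter regions are given only for the lists as deposited and for start regions with ZR as control. The counts under the other settings of this section therefore have no background.

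Replicate numbers pair nothing in the labels, and the deviations of same-numbered libraries correlated at -0.05 to 0.05 over 5180 shared regions. With the number as a block the calls of regions were identical by construction. For start regions the block gave 3 ranked higher and 1 lower in ZR_GSK343, 5 higher in ZR_dmCitra and 1 lower in Citraconate_50K. Gene-end windows of 500 bp and 2 kb left the number of lists with a peak at each member as it was.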
